A study of Mus musculus with 12 samples.

Results

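The Akr1c family consists of aldo-keto reductases that reduce or oxidise ketone and hydroxyl groups of steroids, and it was examined here in whole adrenal tissue through 8 named members: Akr1c18, Akr1c6, Akr1c12, Akr1c13, Akr1c14, Akr1c19, Akr1c20 and Akr1c21. Members were found by the gene symbol that the array platform gives to each probeset, a set of probes read as 1 value. Of the 8 members, 7 had a probeset of their own, 1 each, among 6986 genes so represented in the table. Of the 6986, 6913 lie on chromosomes 1, 10, 11, 12, 13, 14 and 15, so that every share over all genes and every ranking below covers those chromosomes, and genes elsewhere were largely not analysed here. Akr1c13 had none of its own and was read only through 1 probeset that it shares with Akr1c12. The arrays covered 4 groups of mice, all aged 21 weeks by the labels: KK-M and KK-F were male and female KK/HIJ mice, an inbred strain with spontaneous obesity and insulin resistance, and C57-M and C57-F were male and female C57Bl/6J mice. The labels name no engineered allele, and all 4 had been through insulin tolerance and behavioural tests on standard chow. Each group was 1 pool of adrenal RNA applied to 3 arrays, 12 arrays in all, so that SDs and p-values below measure the spread between arrays and none measures the spread between mice. All levels are log2 RMA values, normalised over all arrays by the authors, on which a step of 1 is a doubling of signal.

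Enzymes of this family use a nicotinamide cofactor, and by converting an active steroid into an inactive one, or the reverse, they set how much hormone is available inside a cell. Akr1c18 reduces progesterone to a hydroxylated form that binds the progesterone receptor poorly. In the mouse adrenal, Akr1c18 marks the X-zone, an inner layer of the cortex next to the medulla that regresses at puberty in males and persists longer in females, with timing that varies between strains. Because these RNA pools came from whole glands, fewer cells of a type and less RNA per cell cannot be told apart.

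The gene order used here is that of RefSeq protein-coding genes on mouse chromosome 13, without genes of provisional symbol (Gm, LOC or Rik). In it the 8 members lie side by side, in the order Akr1c14, Akr1c18, Akr1c13, Akr1c19, Akr1c12, Akr1c6, Akr1c20 and Akr1c21. The start of Akr1c18 is shown first because it is the member that differed most between the groups. Akr1cl, a related aldo-keto reductase gene on chromosome 1, is shown because its values followed those of Akr1c18 closely. Each is the RefSeq window (GRCm38.p6) of 250 bases before to 50 bases after the annotated start, on the strand of the gene, which is the minus strand for both; capitals mark AGGTCA, the half-site of nuclear receptors, in Akr1c18 at chr13:4150597-4150896, and TGTTCT, a half-site of steroid receptors, in Akr1cl at chr1:65032710-65033009.
Akr1c18: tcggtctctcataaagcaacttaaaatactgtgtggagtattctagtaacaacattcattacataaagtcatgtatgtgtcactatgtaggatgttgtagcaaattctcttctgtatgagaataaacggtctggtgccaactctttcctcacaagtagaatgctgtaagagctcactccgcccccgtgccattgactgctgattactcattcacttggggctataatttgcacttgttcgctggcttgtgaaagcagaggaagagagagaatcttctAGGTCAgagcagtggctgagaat
Akr1cl: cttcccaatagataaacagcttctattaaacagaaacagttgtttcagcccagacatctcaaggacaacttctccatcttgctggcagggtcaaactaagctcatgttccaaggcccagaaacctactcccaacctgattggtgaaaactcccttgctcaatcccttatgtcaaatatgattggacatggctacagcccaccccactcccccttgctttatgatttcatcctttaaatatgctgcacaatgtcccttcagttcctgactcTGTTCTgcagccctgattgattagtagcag

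RefSeq windows were at hand for 7 of the 8 members. Both stretches marked above lie after the annotated start, not upstream of it. AGGTCA, searched on both strands, began at base 278 of the Akr1c18 window and was in no other member's window. It was held by 16.3% of all 32851 windows. Its longer forms AAGGTCA (4.72% of windows) and CAAGGTCA (1.56%), which overlap it, were in none of the 7, nor were TGTTCT (19.0%), the cyclic AMP element TGACGTCA (1.79%) or the palindromic oestrogen response element (0.07%). TATAAA (13.6%) was found in the Akr1c6 window, and CCAAT (37.4%) in those of Akr1c14, Akr1c19 and Akr1c6. The Akr1c18 window was 49.5% to 56.0% identical to those of the other members, within the range of 48.0% to 58.3% for all pairs but Akr1c12 and Akr1c13. These matches describe the sequence only.

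Akr1c12 and Akr1c13 are printed because 1 probeset could not separate them. Their windows, at chr13:4279350-4279649 on the minus strand and chr13:4190937-4191236 on the plus strand, were 93.4% identical, and capitals mark the bases that differ or are unpaired in the alignment.
Akr1c12: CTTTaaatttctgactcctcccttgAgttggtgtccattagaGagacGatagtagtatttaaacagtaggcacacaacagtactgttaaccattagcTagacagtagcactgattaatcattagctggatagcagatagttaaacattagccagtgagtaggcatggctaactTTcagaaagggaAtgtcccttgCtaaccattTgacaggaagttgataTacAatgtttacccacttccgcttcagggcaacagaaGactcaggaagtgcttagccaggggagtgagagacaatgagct
Akr1c13: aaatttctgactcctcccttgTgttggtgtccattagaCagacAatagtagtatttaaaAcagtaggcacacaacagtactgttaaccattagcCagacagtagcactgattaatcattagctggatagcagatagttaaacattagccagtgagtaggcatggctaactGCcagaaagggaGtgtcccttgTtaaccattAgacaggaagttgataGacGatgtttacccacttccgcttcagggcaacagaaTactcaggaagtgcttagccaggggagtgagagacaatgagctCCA

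The tissue label was checked against marker genes. Cyp11b1, the enzyme of the last step of corticosterone synthesis, had group means of 12.46 to 12.83, and the chromaffin granule gene Chga had means of 11.86 to 12.63. Other tissue was also seen: 10 skeletal muscle markers averaged 6.02 to 6.22 on the KK-M arrays against 3.69 to 3.90 on all others, and 11 hepatocyte markers averaged 6.24 to 6.96 on the C57 arrays against 4.14 to 4.95 on the KK arrays. Means of 3 adipocyte markers lay at 6.04 to 6.16 in KK-F and 7.25 to 7.61 elsewhere, and those of 3 adrenal medulla markers at 9.64 to 10.1 on the KK arrays and 8.92 to 9.41 on the C57 arrays. Within the KK-M group, replicate 1 stood apart on the hepatocyte markers at 4.95, against 4.20 and 4.14 on the other KK-M arrays. These arrays share 1 RNA pool, so this gap is a spread between arrays of the same tissue, and its source was not tested. Array medians lay between 3.88 and 3.99. A gene was tested where its mean was at least 4 in at least 1 group, and 4414 genes met this. A gene was called where the fold change was at least 1.4 and the limma adjusted p was under 0.05, adjusted by Benjamini-Hochberg over all genes tested.

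Akr1c18 was high in females and low in males of both strains, and higher in KK/HIJ than in C57Bl/6J mice of the same sex. On the 3 KK-F arrays it read 12.31, 12.34 and 12.17. On the C57-F arrays it read 8.24, 8.29 and 8.33. The KK-M arrays gave 5.66, 4.25 and 4.72, and the C57-M arrays 2.95, 3.51 and 3.30. The levels thus followed the order KK-F, C57-F, KK-M and C57-M, and no array of 1 group fell within the range of another. The means were 12.27 ± 0.09, 8.29 ± 0.04, 4.87 ± 0.72 and 3.25 ± 0.28 (SD, n = 3), and the spread was widest in KK-M, where replicate 1 was the highest array.

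**Figure D1:**
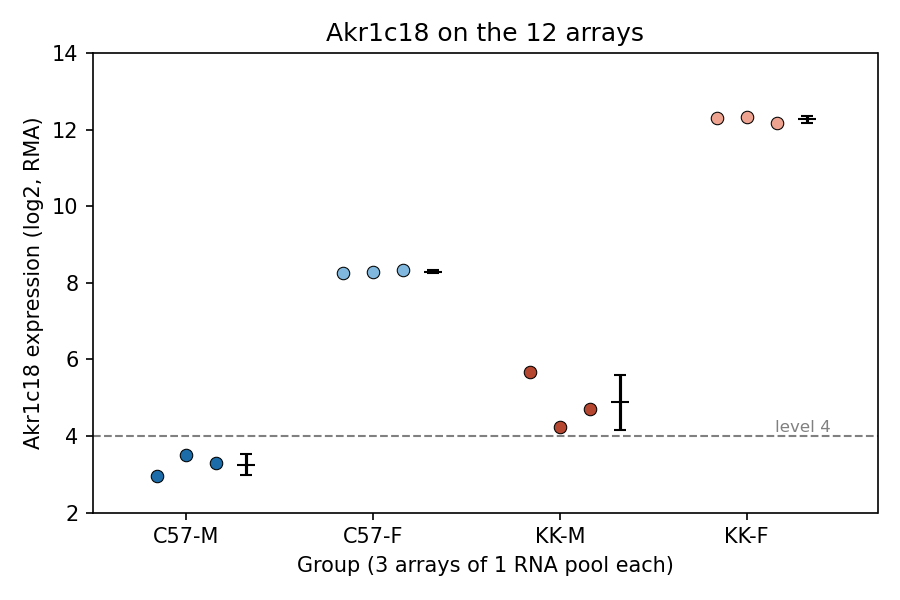
Akr1c18 expression (log2 RMA, vertical axis) on each of the 12 arrays by group, with points for arrays and bars for the mean and SD of 3 arrays; the dashed line is the level of 4 used as the filter. The KK-F arrays lie at 12.17 to 12.34, the C57-F arrays at 8.24 to 8.33, the KK-M arrays at 4.25 to 5.66 and the C57-M arrays below the line, at 2.95 to 3.51.

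The question of the sex comparisons was which adrenal genes differ between males and females within a strain. Between the sexes of the KK/HIJ strain, KK-M fell below KK-F with a log2 difference in Akr1c18 of -7.40 ± 0.26 (SE), a 169-fold change (limma adjusted p = 1.0e-09). In the C57Bl/6J strain the difference between C57-M and C57-F was -5.03 ± 0.26, a 32.8-fold change (limma adjusted p = 2.7e-08). Over all genes tested, 18.8% were called between the KK/HIJ sexes and 7.07% between the C57Bl/6J sexes, and Akr1c18 was the 1 member tested and called in each. Because the C57-M mean lies under the level of 4, where array signal can change little with RNA amount, the direction of the C57Bl/6J difference is firmer than its size. The KK-M arrays, at 4.25 to 5.66, lie not far above that level and spread widely. The size of the KK/HIJ difference is therefore also less firm than its direction, at -7.79 to -7.08 with 1 array left out.

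The strain comparisons asked which genes differ between KK/HIJ and C57Bl/6J mice of 1 sex. In females Akr1c18 was higher in KK-F by 3.98 ± 0.26 on the log2 scale, 15.8-fold (limma adjusted p = 2.4e-07), where 18.6% of genes were called. In males it was higher in KK-M by 1.62 ± 0.26 (limma adjusted p = 4.4e-04), where 20.4% were called, and no fold is given because C57-M lies under the level of 4. Without KK-M replicate 1, the array with most hepatocyte marker signal in its group, the male strain difference was 1.23 (limma adjusted p = 1.7e-04), and KK-M v KK-F was -7.79. The part that muscle, liver, adipose or medullary tissue in the pools played in these differences was not tested; of the 9 muscle markers tested, all 9 were called higher in KK-M against both C57-M and KK-F.

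On the log2 signal scale the sex difference was larger in KK/HIJ than in C57Bl/6J mice, with a strain by sex interaction of -2.36 ± 0.37 (limma adjusted p = 0.0011), a term called in 13.9% of genes. It uses the C57-M level under 4, and a smaller sex difference in C57Bl/6J RNA cannot be told apart from one compressed at the low end of the signal. Averaged over strains, the males were lower by -6.22 ± 0.18, and averaged over sexes the KK/HIJ pools were higher by 2.80 ± 0.18. Akr1c18 was called in all 4 comparisons and in the interaction under each alternative tried, among them the removal of each array in turn.

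The other 6 members with their own probesets were low in every group. Their 72 array values lay between 2.08 and 3.91 on the log2 scale, all under the filter level of 4, so that none was tested with the filter. The table carries no detection call, and whether these signals exceed background is not known. Akr1c18 spanned 9.38 on the log2 scale over the 12 arrays, while the other 6 spanned 0.20 to 1.21. Their differences below come from a fit of all 6986 genes with no filter.

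Akr1c14, a reductase that converts dihydrotestosterone to a weaker androgen, is next to Akr1c18 in the gene order used here. It read 3.51, 3.91 and 3.31 in C57-M and 3.68, 3.18 and 3.47 in C57-F. In KK-M it read 2.74, 2.80 and 2.88, and in KK-F 2.69, 2.71 and 2.98. All 6 KK arrays lay below all 6 C57 arrays, the reverse of the order of Akr1c18 between the strains, and the sexes overlapped. The fit with no filter called it lower in the KK/HIJ males than the C57Bl/6J males by -0.77 ± 0.16 (limma adjusted p = 0.0032) and likewise in the females by -0.65 ± 0.16 (limma adjusted p = 0.0097), beside 13.5% and 12.0% of all genes. In the fit with the filter, 20.4% of all genes tested were called in KK-M v C57-M and 18.6% in KK-F v C57-F. Of the 11 hepatocyte markers tested, 7 were called lower and 1 higher in KK-M v C57-M, and 8 lower and 0 higher in KK-F v C57-F. Their mean was 6.24 to 6.34 in C57-M, 6.83 to 6.96 in C57-F, 4.14 to 4.95 in KK-M and 4.16 to 4.22 in KK-F, and their part in the Akr1c14 difference was not tested. Nor was the match of the KK/HIJ sequence to the probes tested for any member.

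The remaining 5 members were not called in any comparison. Akr1c12 read 2.73 to 3.07 in C57-M and 2.39 to 2.69 in KK-M, and these ranges did not overlap. Its difference of -0.35 ± 0.11 (limma adjusted p = 0.049, no filter) was under the fold threshold. Akr1c19 was at 2.32 to 2.43 in C57-M and 2.57 to 2.76 in KK-M, with a difference of 0.31 ± 0.14 (limma adjusted p = 0.18, no filter). Akr1c6, which acts on androgens as a hydroxysteroid dehydrogenase and is known from mouse liver, read 2.25 to 2.93 over all arrays, Akr1c20 2.20 to 2.59, and Akr1c21, a hydroxysteroid dehydrogenase known from mouse kidney, 2.40 to 2.61. In KK-M v KK-F the differences of all 6 low members lay between -0.12 and 0.18 on the log2 scale, and their 95% intervals between -0.43 and 0.48. In C57-M v C57-F they lay between -0.03 and 0.17, with intervals between -0.29 and 0.47. At these levels a change in RNA may not show in the signal, so that the intervals bound the change in signal only.

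The arrays of the 2 groups did not overlap for 4 of the 7 members in KK-M v C57-M, where 36.1% of all 6986 genes did not overlap. The counts were 2 in KK-F v C57-F (35.2%), 2 in KK-M v KK-F (33.9%) and 1 in C57-M v C57-F (25.0%). Akr1c18 was among them in each comparison, and outside KK-M v C57-M the members' counts were no larger a share of the 7 than these backgrounds.

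The probeset shared by Akr1c13 and Akr1c12 had group means in the order of Akr1c18, from KK-F (3.43) over C57-F (2.91) and KK-M (2.67) to C57-M (2.57), but its C57-M arrays overlapped those of both C57-F and KK-M. It read 3.50, 3.58 and 3.21 in KK-F, above the other 9 arrays. The C57-F arrays gave 3.00, 2.74 and 2.99, the KK-M arrays 2.66, 2.64 and 2.72, and the C57-M arrays 2.77, 2.69 and 2.25. KK-F exceeded C57-F by 0.52 and KK-M lay below KK-F by -0.76 on the log2 scale; since it carries more than 1 gene, it was not in the fit and these differences have no test. The probeset of Akr1c12 alone read 2.63 to 2.71 in KK-F, inside its range of 2.39 to 3.07 over all arrays. A shared probeset cannot tell which gene it read, and all its values were under the level of 4.

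**Figure D2:**
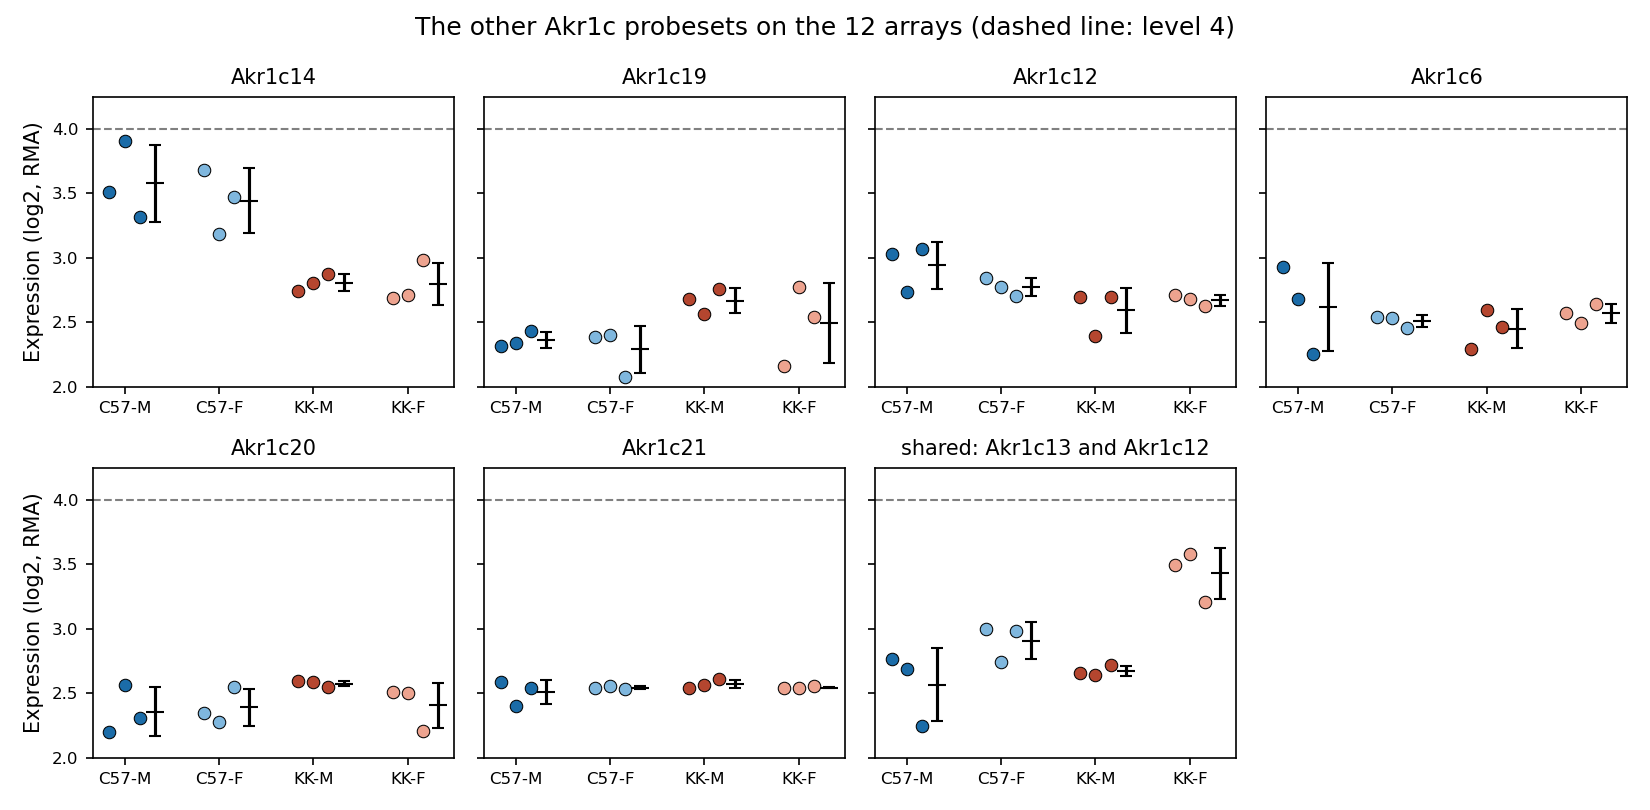
Expression (log2 RMA, vertical axis, the same in every panel) of the 6 low members and of the probeset shared by Akr1c13 and Akr1c12 on the 12 arrays by group, with points for arrays and bars for the mean and SD of 3 arrays. All values lie under the dashed level of 4; Akr1c14 is lower on the 6 KK arrays, and the shared probeset is highest on the KK-F arrays, at 3.21 to 3.58.

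Akr1c18 was then compared with each gene around it through the log2 ratio of the 2 probesets on the same array. Against the 6 low members, the ratio was lower in males than in females by -6.34 to -6.21, and against 10 flanking genes by -6.22 to -5.48. The ratio was higher in KK/HIJ than in C57Bl/6J by 2.55 to 3.51 against the 6 members and by 2.49 to 3.37 against the flanking genes. Each of these 32 comparisons gave p = 0.005 (exact two-sided permutation test, sexes permuted within strain or strains within sex), the smallest value that 3 arrays per group allow, and they share Akr1c18 and so are not independent. Since the low members moved little, these ratios mostly restate the change of Akr1c18 itself.

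Of the 10 flanking genes, 5 on each side in the gene order used here, 6 passed the filter. In KK-M v C57-M 0 were called higher and 2 lower, where 20.4% of all genes were called, with a median of -0.23 against -0.07 over all genes tested. Net1, a guanine nucleotide exchange factor, was lower by -0.52 ± 0.13 (limma adjusted p = 0.0084), and Akr1e1, an aldo-keto reductase at the Akr1c21 end of the cluster, by -0.59 ± 0.10 (limma adjusted p = 9.0e-04). In KK-F v C57-F, where 18.6% of all genes were called, the transcription factor gene Klf6 was called, lower by -0.74 ± 0.09 (limma adjusted p = 5.3e-05). Net1 (-0.45) and Pfkp (0.47) lay near the fold threshold. Net1 passed it when the arrays were median centred (-0.49) or without KK-F replicate 2 (-0.49). Pfkp passed it without C57-F replicate 3, KK-F replicate 2 or KK-F replicate 3 (0.49 to 0.54). Pitrm1, at 0.31, lay further below the threshold and passed it when the arrays were quantile normalised again (0.51). In KK-M v KK-F, where 18.8% of all genes were called, the mitochondrial peptidase gene Pitrm1 was lower by -0.92 ± 0.10 (limma adjusted p = 1.9e-05). The glycolytic enzyme gene Pfkp was lower there by -0.58 ± 0.10 (limma adjusted p = 7.3e-04). In C57-M v C57-F, where 7.07% were called, Pitrm1 was lower by -0.55 ± 0.10 (limma adjusted p = 0.0010). Pitrm1 and Pfkp thus had the sign of Akr1c18 between the sexes at less than 1 log2 unit, and 0 of the 6 were called in the interaction, which was called in 13.9% of all genes. The Net1 call fell under the fold threshold without C57-M replicate 2 (-0.42) or KK-M replicate 2 (-0.38) and when quantile normalised again (-0.38), and the Pfkp call between the KK/HIJ sexes without KK-F replicate 1 (-0.47) and when quantile normalised again (-0.45).

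**Figure D3:**
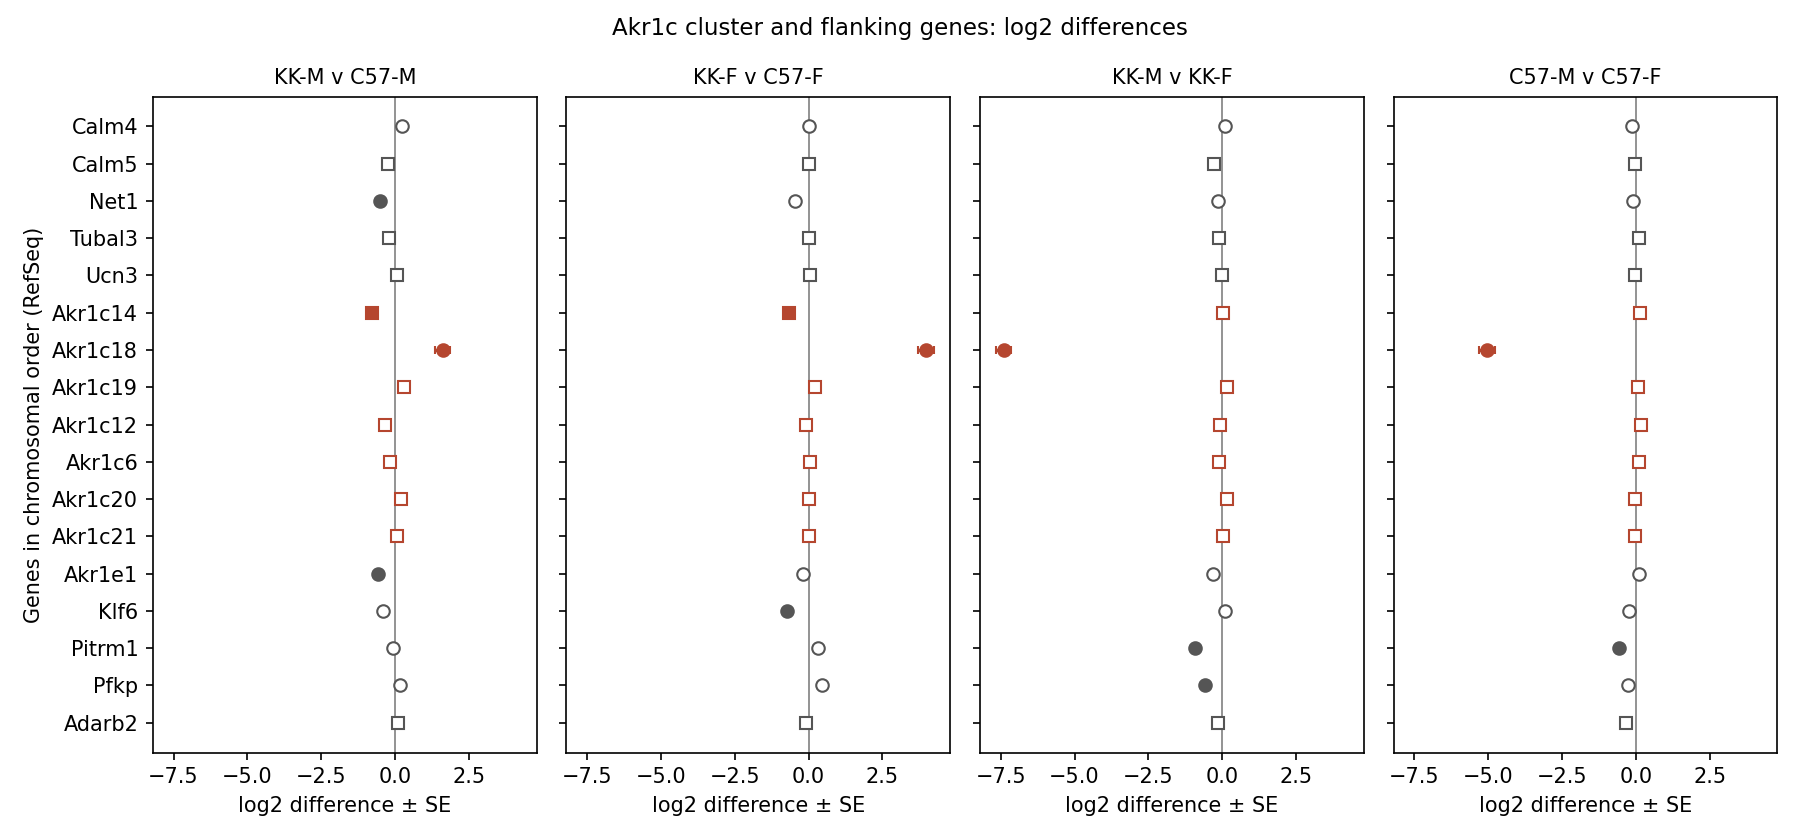
Log2 difference ± SE (horizontal axis, first group minus second) of the Akr1c members (red) and their flanking genes (grey) in chromosomal order, 1 panel for each comparison. Filled symbols were called; squares mark genes under the filter level, whose values come from the fit with no filter. Akr1c18 lies at 1.62, 3.98, -7.40 and -5.03, and every other gene lies within 1 of zero.

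Aldo-keto reductases outside the cluster were represented by 3 of 12 listed genes, all tested, and the rest were not analysed here: Akr1cl, Akr1e1 and Kcnab3, a subunit of potassium channels. Akr1cl read 10.96, 11.02 and 10.94 in KK-F and 10.31, 10.34 and 10.39 in C57-F. The KK-M arrays gave 9.94, 9.86 and 9.49, and the C57-M arrays 9.54, 9.69 and 9.71. Females lay above males in both strains without overlap, KK-F lay above C57-F, and the male groups overlapped. Akr1cl was lower in males than in females, by -1.21 ± 0.11 in KK/HIJ (limma adjusted p = 4.0e-06) and by -0.70 ± 0.11 in C57Bl/6J (limma adjusted p = 3.4e-04). KK-F exceeded C57-F by 0.63 ± 0.11 (limma adjusted p = 7.6e-04), while KK-M v C57-M gave 0.12 ± 0.11 (limma adjusted p = 0.46). Akr1e1 was called only in KK-M v C57-M, as above, and Kcnab3 in no comparison.

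The 5 genes whose values were most like those of Akr1c18, by Pearson's r over the 12 arrays among 4413 other genes tested, were Thrb (0.985), Kif1c (0.980), Akr1cl (0.980), Serpinb1a (0.980) and Aifm2 (0.977). The arrays of a group share 1 pool, so that these values rest on 4 pools, and they are a description without a test. All 5 were picked on these same arrays, so their differences and p-values, those of Akr1cl above included, largely restate that choice. They are no separate support for a shared pattern. Thrb, the thyroid hormone receptor beta gene and a known gene of the X-zone, read 8.52 to 8.56 in KK-F, 7.20 to 7.44 in C57-F, 6.05 to 6.47 in KK-M and 6.08 to 6.26 in C57-M. Its difference was -2.30 ± 0.11 in KK-M v KK-F (limma adjusted p = 1.4e-08) and -1.16 ± 0.11 in C57-M v C57-F (limma adjusted p = 5.5e-06). KK-F exceeded C57-F by 1.22 ± 0.11 (limma adjusted p = 3.5e-06), and the male groups overlapped.

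Serpinb1a, an inhibitor of neutrophil proteases, had the largest range of the 5, from 2.87 to 3.17 in C57-M, 3.18 to 4.30 in KK-M and 5.56 to 6.01 in C57-F to 6.96 to 7.19 in KK-F. It was the 1 gene of the 5 that was called between the male groups, at 0.70 ± 0.22 (limma adjusted p = 0.028), a call lost without KK-M replicate 1 (0.42, limma adjusted p = 0.098) and also without KK-M replicate 2, C57-M replicate 1 or C57-M replicate 2 (limma adjusted p = 0.055 to 0.092), with no variance moderation (0.087) and with only the compared groups in the fit (0.062). Both male means, 3.73 and 3.03, lie under the level of 4, so the gene was tested only through the female groups. The kinesin motor gene Kif1c and the oxidoreductase gene Aifm2 changed less, with -1.22 ± 0.11 and -1.21 ± 0.08 in KK-M v KK-F. In KK-M, replicate 1 was the highest array for Akr1c18, Thrb, Kif1c, Akr1cl and Serpinb1a, and the second highest for Aifm2.

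**Figure D4:**
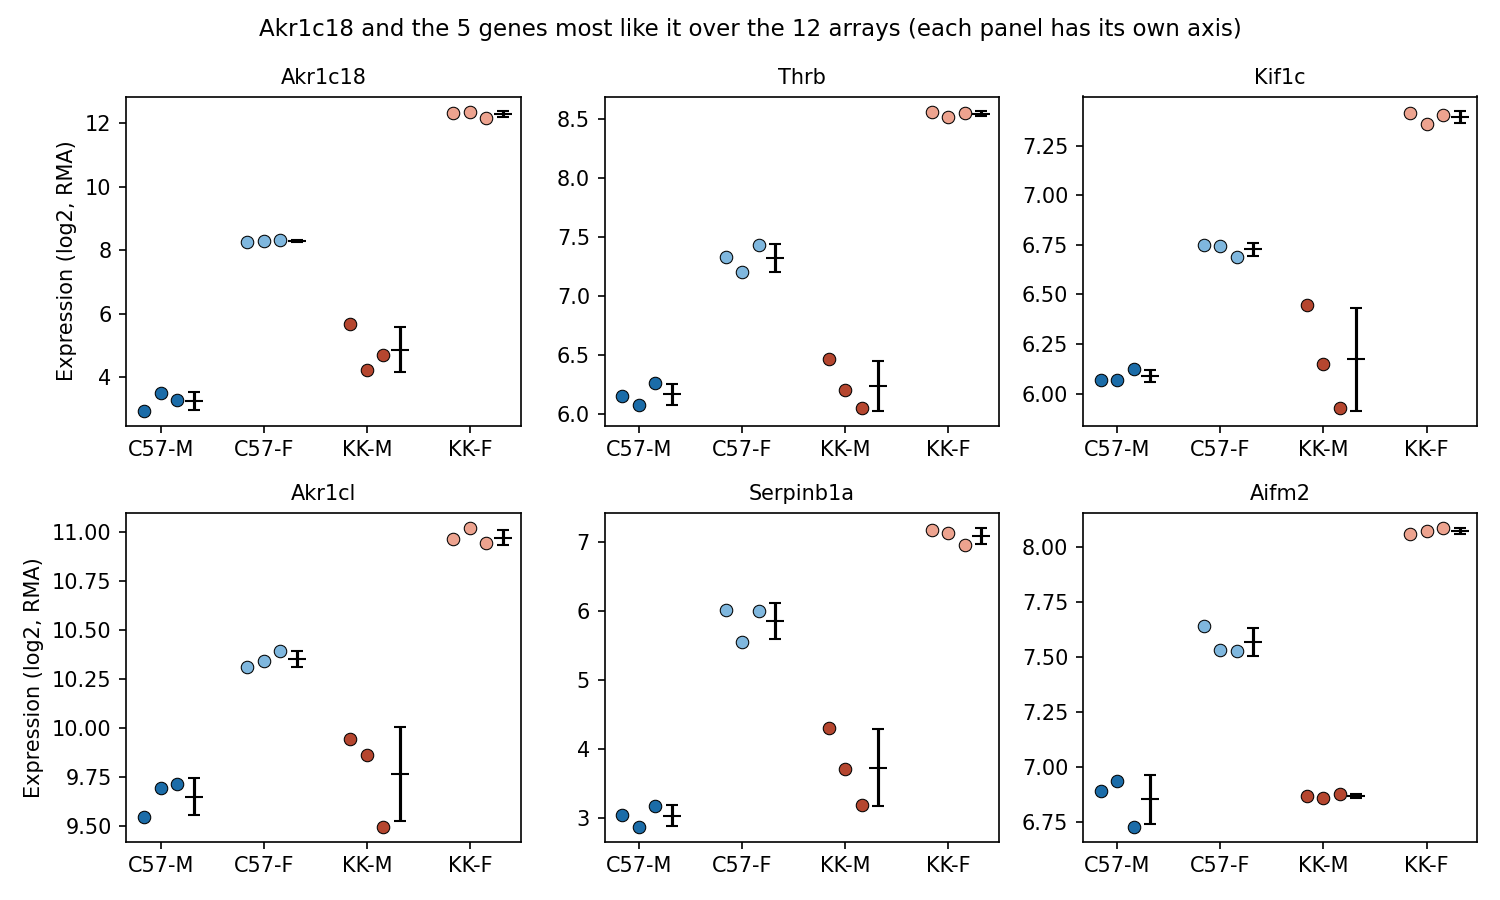
Expression (log2 RMA, vertical axis, scaled separately in each panel) of Akr1c18 and the 5 genes most like it on the 12 arrays by group, with points for arrays and bars for the mean and SD of 3 arrays. In every panel KK-F is highest and C57-F next; only Akr1c18 and Serpinb1a have KK-M arrays that all lie above the C57-M arrays.

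Other genes of steroid metabolism were represented by 10 of 44 listed genes, of which 7 were tested, and the listed genes outside these 10 were not analysed here. Higher and lower calls numbered 0 and 2 in each strain comparison, and 1 and 1 in each sex comparison and in the interaction. Over all genes tested, the share called was 20.4% in KK-M v C57-M and 18.6% in KK-F v C57-F. It was 18.8% in KK-M v KK-F, 7.07% in C57-M v C57-F and 13.9% in the interaction. With so few genes, these counts are not read as a result about the list. Medians of the 7 were -0.13 in KK-M v C57-M, -0.28 in KK-F v C57-F, 0.02 in KK-M v KK-F and -0.15 in C57-M v C57-F, beside -0.07, 0.03, -0.06 and 0.02 over all genes tested. Hsd17b7, an enzyme of oestradiol and cholesterol synthesis, read 4.93, 4.87 and 4.31 in KK-M and 6.58, 6.14 and 6.53 in KK-F. Its KK-M level lay under that of KK-F by -1.71 ± 0.18 (limma adjusted p = 1.8e-05) and under that of C57-M by -1.19 ± 0.18 (limma adjusted p = 3.3e-04). Hsd11b1, which regenerates corticosterone from its inactive form, was lower in KK/HIJ mice, by -0.85 ± 0.12 in males (limma adjusted p = 2.0e-04) and by -0.66 ± 0.12 in females (limma adjusted p = 0.0013).

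Hsd17b6, an oxidative hydroxysteroid dehydrogenase, read 4.18, 4.86 and 4.87 in C57-F, the only group with a mean above 4, and was lower in KK-F by -1.23 ± 0.18 (limma adjusted p = 1.9e-04) and in C57-M by -0.79 ± 0.18 (limma adjusted p = 0.0043). It passed the filter only through C57-F, the group where it is high, so that its calls lend the list's count no support; both differences were also called with no filter. Hsd11b1 and Hsd17b6 are also known from liver, and the hepatocyte marker levels given for Akr1c14 apply to them too; the part of that tissue was not tested. Cyp11b2, the aldosterone synthase, was higher in males, with means of 10.1 in KK-M and 9.10 in KK-F (limma adjusted p = 5.0e-06), and by 0.85 ± 0.09 in C57-M v C57-F (limma adjusted p = 2.0e-05). Cyp11b1, the cholesterol-binding protein gene Stard3 and the mitochondrial membrane gene Tspo were not called in any comparison.

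Akr1c18 is also abundant in the ovary, and the ovary markers were therefore read. Inhba read 2.97 to 3.30 and Amh 3.60 to 3.86 as group means, under the level of 4 in every group, and neither was called between the sexes of a strain with no filter. Inha, which the adrenal also expresses, was higher in males, with means of 8.06 in KK-M and 7.80 in C57-M against 7.02 in KK-F and 7.09 in C57-F. The 3 measured of 7 listed ovary markers averaged 4.46 to 4.69 on the KK-F arrays and 4.92 to 5.04 on the KK-M arrays. On the C57-F arrays they averaged 4.52 to 4.81 and on the C57-M arrays 4.74 to 5.07, which overlap. These averages include Inha, and Lhcgr and the other listed markers were not analysed here. Whether the pools held ovary was therefore not tested.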

How the data were processed

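RNA of whole adrenals was measured on Mouse Gene 2.0 ST arrays. From the labels and the methods, the authors pooled RNA by group, applied each pool to 3 arrays, and deposited log2 values after RMA in Partek (background correction, quantile normalization, median polish). The table used here holds 16378 probesets, of which 7358 carry 1 gene symbol in the platform annotation, 456 several and 8564 none listed. Of the 7358, 7310 matched RefSeq (GRCm38.p6) by gene ID; the probeset build was not given in the sources used here. The brightest probeset of each gene was fitted with limma 3.58.1 (R 4.3.3), 1 mean per group over 12 arrays, with 8 residual and 4.84 prior degrees of freedom. P-values were adjusted jointly over the 4 pairwise comparisons and separately for the interaction. Named genes were the members, their flanking genes, listed genes called in any comparison and the 5 genes most correlated with Akr1c18. Members and lists were chosen with earlier results of these data known. The fit was tested on simulated data. Alternatives changed the filter, normalization, variance model, probeset choice, adjustment, fold threshold, replicate block and arrays. The number of arrays, and the single pool behind each group, limits the precision.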

Additional observations from a re-analysis of the deposited data

Results flagged for a closer look

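For 7 of the genes named above, the sex difference in KK/HIJ differed from that in C57Bl/6J in the interaction term of the limma fit, coded as KK-M minus KK-F, less C57-M minus C57-F, a term called in 13.9% of all genes tested. Thrb, Kif1c, Akr1cl and Aifm2 were picked for their likeness to Akr1c18 on these same arrays, so that their sharing its sign restates that choice. Akr1c18 was at -2.36 ± 0.37 (adjusted p = 0.0011), a size that is not firm because its C57-M level lies under 4. Hsd17b7 was at -1.56 ± 0.26 (adjusted p = 0.0016), with a sex difference of -1.71 in KK/HIJ and of -0.15 in C57Bl/6J. Thrb was at -1.14 ± 0.15 (adjusted p = 3.4e-04). Kif1c was at -0.58 ± 0.15 (adjusted p = 0.023), Akr1cl at -0.51 ± 0.15 (adjusted p = 0.039) and Aifm2 at -0.49 ± 0.11 (adjusted p = 0.011). Hsd17b6 went the other way, at 0.81 ± 0.25 (adjusted p = 0.043), with a sex difference of 0.02 in KK/HIJ and of -0.79 in C57Bl/6J; it passed the filter only through C57-F, and its call was lost with no filter (adjusted p = 0.066) and with no variance moderation (adjusted p = 0.10). Akr1c18, Hsd17b7 and Thrb stayed called with each array left out. The Akr1cl term was lost without any 1 of 9 arrays (all but C57-M replicate 1, KK-M replicate 1 and KK-M replicate 2; -0.60 to -0.37 over all 12), the Hsd17b6 term without any 1 of 9 arrays (all but C57-M replicate 3, C57-F replicate 1 and KK-M replicate 2; 0.68 to 1.03), the Aifm2 term without any 1 of 5 (C57-M replicates 1 and 2, C57-F replicates 2 and 3, and KK-F replicate 3; -0.55 to -0.45) and the Kif1c term without any 1 of 3 (C57-F replicate 3, KK-M replicate 3 and KK-F replicate 1; -0.72 to -0.46). When the arrays were quantile normalised again, Kif1c (-0.47, adjusted p = 0.056), Akr1cl (-0.38) and Aifm2 (-0.36) were not called. Median centring also lost the calls of Akr1cl (-0.47) and Aifm2 (-0.45). The Akr1cl call was further lost with no filter (limma adjusted p = 0.067) and with no variance moderation (adjusted p = 0.058). At a fold threshold of 2, only Akr1c18, Hsd17b7 and Thrb stayed called. The groups of 3 arrays were too small for a check of single outlying arrays.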

How the results depend on the processing

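Akr1c18 kept its direction and its call in all 4 comparisons and in the interaction under every alternative tried. With 1 array left out it ranged from 1.23 to 1.93 in KK-M v C57-M, 3.95 to 4.04 in KK-F v C57-F, -7.79 to -7.08 in KK-M v KK-F, -5.16 to -4.88 in C57-M v C57-F and -2.76 to -2.05 in the interaction. With no filter, 2 members in place of 1 were called in KK-M v C57-M and in KK-F v C57-F, since Akr1c14 was then tested. With no filter kept for each further alternative, which was chosen after seeing the data, the Akr1c14 calls were lost only at a fold threshold of 2. The 480 recomputed ratios of Akr1c18 to its neighbours kept their direction and stayed at p = 0.005 to 0.01 (exact permutation). They mostly restate the change of Akr1c18, whose groups do not overlap, and so are no separate support. The Akr1cl interaction was called in 3 of 12 fits with 1 array left out and in 6 of 12 other settings (adjusted p = 0.0045 to 0.084), and the causes were not tested. Same-numbered arrays did not pair: 3 of 18 pairs had r over 0.1 (range -0.10 to 0.12), and with the replicate block Akr1c18 stayed called (adjusted p = 0.0027 for the interaction), the Akr1c14 strain calls stayed with no filter, and the Akr1cl interaction was lost (adjusted p = 0.052). Low signal limits the 6 dim members, and 1 RNA pool per group limits every comparison.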
